A study of Arabidopsis thaliana with 2 samples.

Results

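XTH16, XTH18, XTH19 and XTH32 encode xyloglucan endotransglucosylase/hydrolases, and GH9B8, GH9B13 and GH9C2 encode endoglucanases of glycoside hydrolase family 9. These 7 genes were found by their symbols in the array's probe annotation, which names each of them alone with 1 probe set, out of 13356 genes that probe sets named alone. Signals came from whole seedlings of Arabidopsis thaliana, accession Landsberg erecta, on 1 array after 1 h of red light and on 1 array after a further 1 h of darkness. Both groups were 7 days old, dark-grown at 23 °C on agar after 2 days of cold and 2 h of white light given to the seeds, and the labels name no transgene. Landsberg erecta plants carry a mutation in ERECTA, a receptor kinase gene of organ growth, so both groups share it. Each array held RNA from a pool of 5 seedlings, and the lamp's red filter passed light with a peak at 630 nm, at a fluence rate near 10 µmol per square metre and second.

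Xyloglucan is a branched glucan that coats and tethers cellulose microfibrils in the primary wall of dicot plants. XTH enzymes cut a xyloglucan chain and either join the new end to another xyloglucan chain or release it to water, and GH9 endoglucanases cleave the internal β-1,4 bonds of glucan chains. A dark-grown seedling elongates its hypocotyl by stretching such walls, and light perceived by phytochromes slows this growth. Within the XTH family, XTH18 and XTH19 are close relatives best known from roots, while XTH32 lies on the branch that also holds XTH31, an enzyme known mainly for hydrolysis. In the GH9 family, class A proteins are anchored in membranes, class B proteins are secreted and consist of the catalytic domain, and class C proteins carry a carbohydrate-binding module as well.

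The 7 genes did not differ in one direction between the arrays. XTH32 was 2.51-fold higher after red light, while XTH18, XTH19 and GH9B8 were 2.02-fold, 2.03-fold and 2.29-fold lower. The other 3 genes lay between, with XTH16 1.57-fold higher, GH9C2 1.35-fold higher and GH9B13 1.43-fold lower. With a threshold of 2-fold, 1 of the 7 genes was thus higher and 3 were lower, where 4.82% of 7282 measured genes were higher and 2.44% lower. Measured here means a mean log2 signal at or above the 40th percentile of probe sets (a signal of 102), which all 7 reached. Their median log2 ratio (red light over dark) was -0.52, against 0.00086 over all measured genes. Over all measured genes of each family the median was -0.26 for XTH (6 genes) and -0.19 for GH9 (4 genes). The 7 genes were chosen with earlier results of these data known. Their counts and median therefore do not show a difference from the measured genes at large. With the arrays centred on their hybridization controls, none of the 3 lower genes passed 2-fold. That centring raised every ratio and changed the sign of both family medians. Each group was a single array without replicates, so no test, error or p-value belongs to these values.

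**Figure D1:**
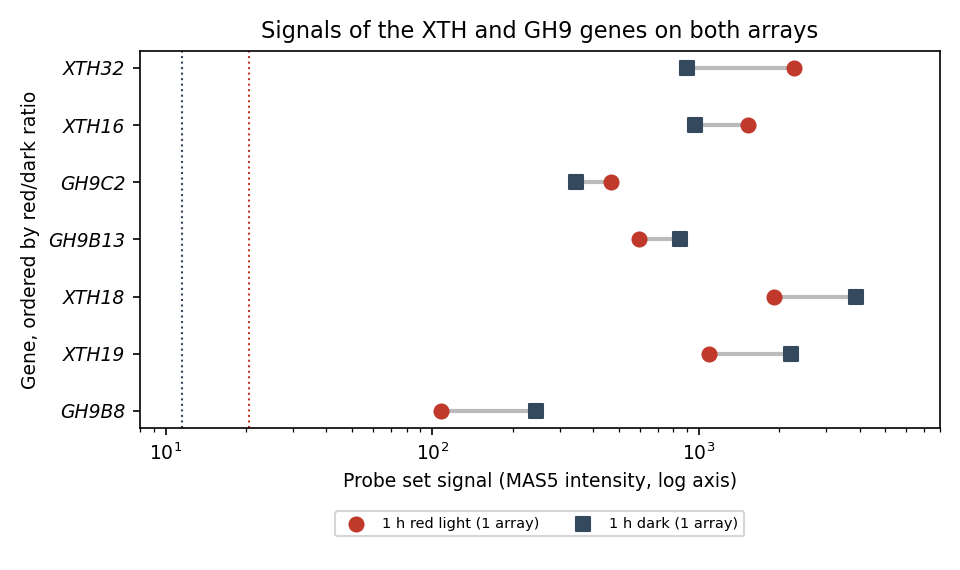
Probe set signal of each of the 7 genes (MAS5 intensity on a log axis) on the red light array (circles) and the dark array (squares), 1 array each with no error bars. Dotted lines mark the highest of the 27 bacterial background probe sets on each array, 20.5 for red light and 11.5 for dark. The red light circle lies to the right of the dark square for XTH32, XTH16 and GH9C2 and to the left for the other 4 genes.

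Among the XTH genes, XTH32 had a signal of 2266 under red light against 903.5 in darkness. Its log2 ratio was 1.33, and 2.29% of the measured genes had a larger one. XTH16 had a red light signal of 1527 and a dark signal of 969.6, a log2 ratio of 0.66. Both genes were thus brighter on the red light array, and only XTH32 passed 2-fold.

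XTH18 had a signal of 1917 under red light against 3865 in darkness. XTH19 had a signal of 1088 under red light against 2208 in darkness. Both genes were dimmer on the red light array by nearly the same factor, with log2 ratios of -1.01 for XTH18 and -1.02 for XTH19, just past the 2-fold threshold. A ratio lower than that of XTH18 was found in 2.35% of the measured genes. XTH18 and XTH19 are next to each other on chromosome 4 in the TAIR10.1 gene table, with XTH24 as the next protein-coding gene on the other side of XTH18. Neither probe set has a name ending that marks possible cross-hybridization, so leaving out probe sets with such endings could not change either ratio. Binding of one gene's transcripts to the other's probes was not tested on probe sequences. XTH24 was not analysed here.

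XTH16, XTH18, XTH19 and XTH32 were all among the brightest 1457 measured genes. Of those, 1.85% passed 2-fold towards red light and 1.72% towards the dark. XTH32 was 1 of 27 such higher genes, and XTH18 and XTH19 were 2 of 25 such lower genes. Their red light signals were 53.1 to 111 times the highest background probe set of that array.

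Among the endoglucanase genes, GH9B8 had a signal of 107 under red light against 245.5 in darkness. This was the lowest ratio of the 7 genes, at -1.19 on the log2 scale, and 1.54% of the measured genes had a lower one. GH9B8 was among the dimmest 1457 measured genes, of which 3.57% were lower by 2-fold or more, and its red light signal was 5.23 times the highest background probe set. Adding a pseudocount of 22.1 to both signals took its log2 ratio to -1.05.

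GH9B13, also of class B, had a signal of 596 under red light against 852 in darkness, a log2 ratio of -0.52. It was dimmer on the red light array, and 88.6% of the measured genes had a higher ratio. GH9C2, the class C gene, had a signal of 466.5 under red light against 346 in darkness, a log2 ratio of 0.43. It was the only one of the 3 endoglucanase genes to be brighter on the red light array, and 18.9% of the measured genes had a higher ratio.

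**Figure D2:**
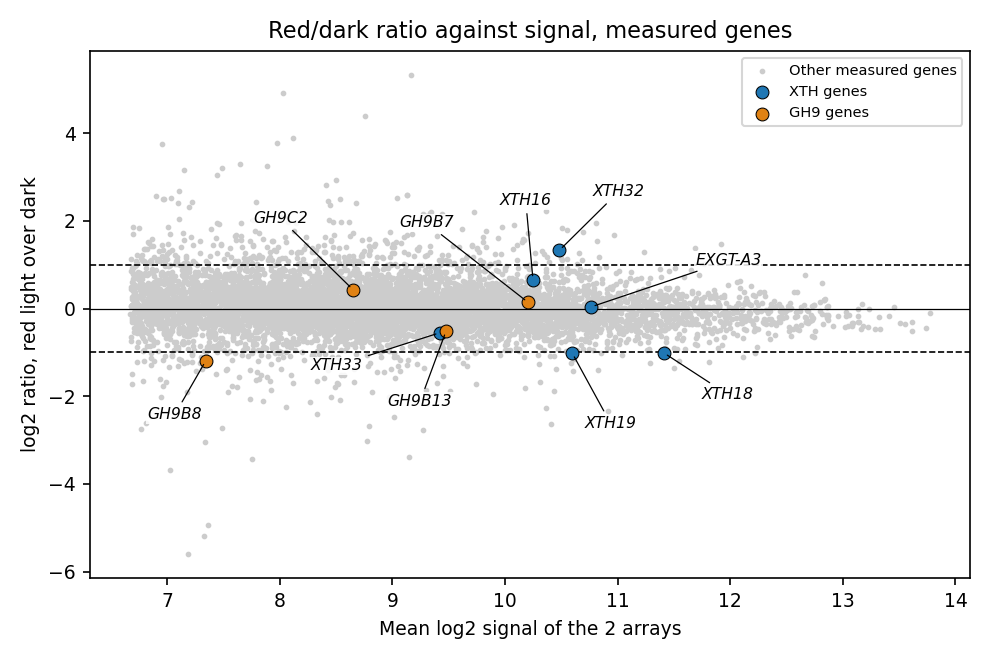
Log2 ratio of red light over dark (vertical axis) against the mean log2 signal of both arrays (horizontal axis) for the 7282 measured genes, with the measured XTH genes in blue and GH9 genes in orange. Dashed lines mark 2-fold. XTH32 lies above the upper line, and XTH18, XTH19 and GH9B8 lie on or below the lower one.

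Paralogues were compared by the difference of their log2 ratios, since the signals of different probe sets do not rank transcript amounts. Bright and dim refer to probe set signal only. XTH32 and XTH18 differed by 2.34 and XTH32 and XTH19 by 2.35, so that XTH32 gained 5.05-fold and 5.09-fold on them between the dark and the red light array. XTH16 differed from XTH18 by 1.67 and from XTH19 by 1.68. XTH18 and XTH19 differed by 0.0095. Among the endoglucanases, GH9C2 differed from GH9B8 by 1.63 and from GH9B13 by 0.95.

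A rough gauge of probe set error came from 37 pairs of measured probe sets that name the same gene, in which the median gap between log2 ratios was 0.27 and the 90th percentile 0.77. It holds no difference between seedling pools. Of the 21 pairs among the 7 genes, 17 differed by more than 0.27 and 13 by more than 0.77. These pairs reuse the ratios of 7 genes chosen with earlier results known. The share among pairs of all measured genes was not computed. The counts therefore do not show that these genes differ more than others do. In the order XTH32, XTH16, GH9C2, GH9B13, XTH18, XTH19, GH9B8, the ratios of XTH16 and GH9C2 (0.22 apart), XTH18 and XTH19, and XTH19 and GH9B8 (0.17 apart) lay within the median of the gauge. With loess and quantile normalization XTH16 and GH9C2 were 0.30 and 0.29 apart and XTH19 and GH9B8 0.31 and 0.29, beyond 0.27. The gap between GH9C2 and GH9B13, at 0.95, was the widest between neighbours and the only one beyond 0.77.

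Both arrays had a trimmed mean signal of 500.0 (2% of probe sets left out at each end), yet 17 of 18 hybridization controls were dimmer on the red light array, with a median log2 ratio of -0.30. Centring on those controls raised every ratio by 0.30, which put XTH18 at -0.71, XTH19 at -0.72 and GH9B8 at -0.89, all under 2-fold, and XTH32 at 1.63. On that scale 705 genes were higher and 91 lower, so that 88.6% of the called genes were higher, in place of 66.4% (351 higher and 178 lower) with the deposited scale. Loess correction put XTH18 at -0.93 and XTH19 at -0.97, and quantile normalization put XTH18 at -0.95 and XTH19 at -1.003, which was just past 2-fold. Centring adds the same amount to every ratio and cannot move a difference between genes. With loess, quantile normalization and the pseudocount included, the difference between XTH32 and XTH18 was between 2.29 and 2.34, and that between XTH32 and XTH19 between 2.31 and 2.35. The difference between XTH32 and GH9B8, the dimmest of the genes, ranged from 2.35 to 2.66. All 7 genes kept the sign of their ratio under the deposited scale, median centring, loess, quantile normalization, the pseudocount and centring on the hybridization controls.

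**Figure D3:**
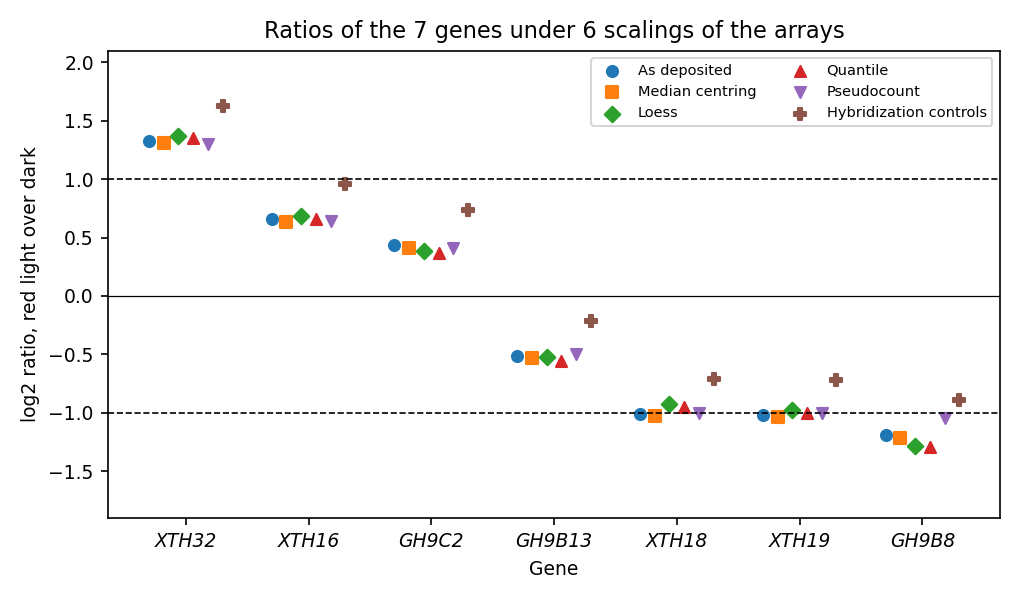
Log2 ratio of red light over dark for the 7 genes (horizontal axis) under the deposited scale and 5 alternatives, each a marker, with dashed lines at 2-fold. XTH32 stays above the upper line under each, while XTH18, XTH19 and GH9B8 move above the lower line with centring on the hybridization controls. XTH18 and XTH19 also do with loess, and XTH18 with quantile normalization.

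The remaining 6 XTH genes that the annotation names alone were mostly dim. Of 33 XTH loci 10 had such a probe set, and 6 were measured. XTH33 had a red light signal of 566 and a dark signal of 830.4, a log2 ratio of -0.55. EXGT-A3, the locus also known as XTH27, had signals of 1763 and 1717 and a log2 ratio of 0.04. XTH20, a relative of XTH18 and XTH19, had 93.2 after red light and 69.6 in the dark, too dim to be measured. XTH21, known from primary root growth, had 28.6 and 37.8. XTH26, known from root hairs, had 11.5 and 20.6, and XTH29 had 0.8 and 5.7. For XTH26 and XTH29 the red light signal lay below background, and a fold is not stated.

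Of 25 GH9 loci the annotation names 15 alone, and 4 were measured. GH9B7 was the measured gene beside GH9B8, GH9B13 and GH9C2, with a red light signal of 1240, a dark signal of 1124 and a log2 ratio of 0.14. GH9C1, a class C gene known from root hairs, had a red light signal of 25.5 and a dark signal of 86.2. GH9A3 had a red light signal of 44.3 and a dark signal of 22.2. Both were above background on each array and too dim to count as measured. For the other 9, which were GH9A4, GH9B5, GH9B6, GH9B11, GH9B12, GH9B16, GH9B17, GH9B18 and GH9C3, the signal was at or under the highest background probe set on at least 1 array. The probe set shared by GH9B14 and GH9B15 had signals of 20.9 and 18.5, and the one shared by GH9B9 and GH9B10 had 1.2 and 0.6. Other loci of both families were not analysed here.

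Other cell wall genes gave a backdrop of 21 measured genes, of which 1 passed 2-fold upwards and 2 downwards. The downward count was 4 with loess or quantile normalization and 1 with the pseudocount or centring on the hybridization controls. Their median log2 ratio was -0.10, and 0.20 with that centring. Of 16 loci for xyloglucan synthesis and trimming the annotation names 5 alone, and 3 were measured. All 3 were CSLC genes, of the family that makes the glucan backbone, and none passed 2-fold. CSLC04 had a red light signal of 512.5 and a dark signal of 950.1, a log2 ratio of -0.89, while CSLC5 was at -0.10 and CSLC6 at -0.01. On the cellulose list 2 genes were measured. COB, which encodes an anchored surface protein needed for oriented cellulose deposition, had a log2 ratio of 0.02, and the locus AT1G45688 had 0.65.

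Of 5 genes on the pectin list that the annotation names alone 2 were measured, and these went apart. AT1G48100 had a red light signal of 298 and a dark signal of 53.0, 5.63-fold higher, and GAUT15, of a galacturonosyltransferase family, had a log2 ratio of -0.30. The dark signal of AT1G48100 was under the limit of 102, so it counted as measured only through its red light signal. Of 18 expansin genes that the annotation names alone 11 were measured. None of them was 2-fold higher under any of the 6 scalings. On the deposited scale 4.82% of all measured genes were 2-fold higher and 2.44% lower. With 11 genes, a count of none higher does not set the expansins apart. The 2-fold lower ones were EXPA9 and EXPA8 on the deposited scale, EXPA9 alone with the pseudocount or the hybridization controls, and also EXLA3 and EXPB1 with loess or quantile normalization. EXPA9 was at -2.07, EXPA8 at -1.003 and EXLA3 at -0.96 on the log2 scale.

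By closeness of the log2 ratio over the 2 arrays, the wall gene most like XTH18, XTH19 and GH9B8 was EXPA8, which differed from them by 0.0081, 0.018 and 0.19. GH9B13 lay nearest to EXPA20, GH9C2 to EXLA2 and XTH16 to AT1G45688, with differences of 0.023, 0.092 and 0.0072. XTH32 had no close match, since the nearest was AT1G45688 at a difference of 0.68. A pattern over 2 arrays is a single ratio, so this is a weak measure of likeness.

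**Figure D4:**
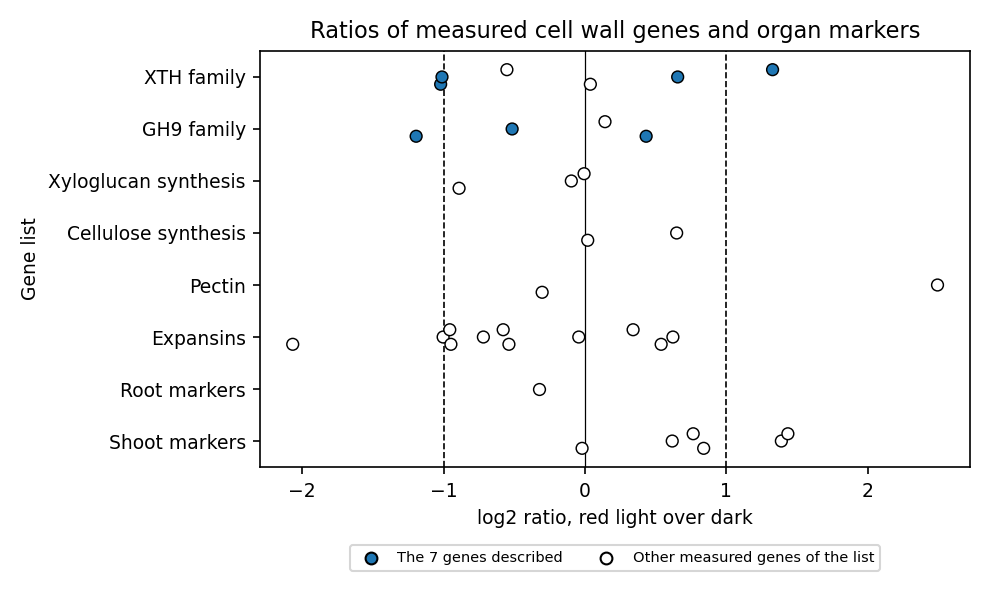
Log2 ratio of red light over dark (horizontal axis) for each measured gene of 6 cell wall lists and 2 organ marker lists (1 row per list, points set apart vertically only for legibility), with the 7 genes described in blue and dashed lines at 2-fold. The XTH row reaches both dashed lines, and on this deposited scale the expansin row reaches the lower one alone.

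Whole seedlings hold root and shoot, and fewer cells of a kind cannot be told apart from less RNA per cell. Of 13 root markers the annotation names 3 alone, and these summed to 7803 under red light against 9842 in darkness. PYK10, an abundant β-glucosidase of roots and hypocotyls, made up most of it at 7781 and 9764, a log2 ratio of -0.33. EXPA7 (8.8 and 26.4) and EXPA18 (13.5 and 52.3), expansins of root hairs, were under the highest background probe set on the red light array. Of 11 loci on the shoot marker list the annotation names 6 alone, and these summed to 32249 under red light against 21671 in darkness. The brightest of them, LHCB4.1, had signals of 8945 and 9074, a log2 ratio of -0.02. The largest log2 ratios were 1.43 and 1.39 for the antenna protein genes LHCB4.3 and LHCB4.2, and 0.84 for the photosystem II gene PSBW. No marker that the annotation names alone had a signal of 0. The ratio of PYK10, the one measured root marker, was -0.11 with quantile normalization and -0.03 with centring on the hybridization controls. Of the 6 shoot markers 5 had a ratio above 0 and 2 passed 2-fold. All 6 are photosynthesis genes, and in them shoot content and a response to light cannot be told apart. The part of root and shoot content in the lower XTH18 and XTH19 signals and the higher XTH32 signal was not tested.

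Over the whole arrays, signals ran from 0 to 13528 after red light and to 15866 in the dark, with medians of 203 and 191. The ratio of 3′ to 5′ control signal for actin was 40.1 (red light) and 35.8 (dark) with one pair of probe sets, and 6.55 and 8.44 with another. For GAPDH and ubiquitin it was 1.60 to 4.59 after red light and 2.05 to 5.36 in the dark. Batch and group cannot be told apart, since each group was 1 array.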

How the data were processed

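The authors deposited intensity values on a linear scale, 1 per probe set. MAS5 version 5 is named in the submitters' processing notes. The arrays were hybridized with label made from 20 ng of total RNA per sample, amplified and biotin-labelled, per the labels' protocols. MAS5 settings: not given in the sources used here. Of 22810 probe sets, 64 were controls, 13513 named 1 gene, 503 several, and 8730 stay unnamed here. All 7 genes matched the TAIR10.1 gene table, used for names, loci and neighbours only.

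Signals under 1 were set to 1 and turned to log2, and red light was divided by dark. Probe sets naming several genes were left out and those of a gene averaged. Genes at 2-fold were called higher or lower. Alternatives were median centring, loess (span 0.3), quantile normalization, centring on 18 hybridization controls, a pseudocount (the 25th percentile of signals), other filters (none, or the 60th percentile), no cross-hybridizing probe sets, the brightest probe set, and 1.5-fold and 3-fold thresholds. The deposited scale, median centring, loess and quantile normalization were tested on simulated data, with small noise and known changes in bright probe sets. The pseudocount and centring on the hybridization controls were not tested in this way. The members and lists were chosen with earlier results of these data known. Named were the 7 genes, their families and up to 3 measured genes with the largest absolute ratio per further list. The nearest wall gene by ratio, sought outside the 7, was named as well. The number of arrays limits the precision. Python 3.11.15, numpy 2.4.6, pandas 2.3.3 and statsmodels 0.14.6 were used.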

Additional observations from a re-analysis of the deposited data

How the results depend on the processing

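No paired analysis was possible because there is only 1 array in either group. A ratio counted as moved when it changed by more than 0.27, the median difference between probe sets of the same gene. Only centring on the hybridization controls moved the members' ratios by more, to 1.63 for XTH32, 0.96 for XTH16, 0.73 for GH9C2, -0.21 for GH9B13, -0.71 for XTH18, -0.72 for XTH19 and -0.89 for GH9B8, by adding a constant. Of the 7 genes, 1 was higher and 3 were lower at 2-fold. The lower count was 1 with loess, 2 with quantile normalization and 0 with the hybridization controls. The higher count was 2 at 1.5-fold (XTH32 and XTH16), and both counts were 0 at 3-fold. Over all genes, the 351 higher and 178 lower became 705 and 91 with the hybridization controls, 1628 and 1165 with no filter, 172 and 89 with the filter at the 60th percentile (a signal of 332, under which GH9B8 was not measured), 925 and 652 at 1.5-fold, and 93 and 55 at 3-fold. With 1 array in either group, none of these folds has a bound. GH9B8, the dimmest of the 7, had log2 ratios from -1.29 to -0.89 over the scalings, the widest range of the 7.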
